A study of Homo sapiens with 6 samples.

Results

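Amino acid transporter genes of the solute carrier families SLC1, SLC3, SLC6, SLC7, SLC36, SLC38 and SLC43 were compared between control and amiodarone-treated HL-60 cells. Members were the rows whose symbol is one of these family names followed by the letter A and a number, and 55 of the 17911 genes in the expression table met this rule. HL-60 is an established human promyelocytic leukaemia cell line, grown here without any stated genetic change. The control group (3 libraries) is labelled control, without saying whether a vehicle was given. The amiodarone group (3 libraries) received 10 uM amiodarone, an antiarrhythmic and cationic amphiphilic drug, for 24 h. The title of the study presents the drug as activating the mitochondrial deacetylase SIRT3. Nothing in the labels ties the 3 libraries of a group to separate cultures, so the spread behind each p-value is one between libraries and could be technical.

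Cells take up amino acids through carriers that differ in substrate and in driving force. SLC1, SLC6 and SLC38 carriers mostly use the sodium gradient, some SLC36 carriers use protons, and most SLC7 and SLC43 carriers exchange or equilibrate substrates across the membrane. Several SLC7 proteins are light chains that reach the cell surface only when bound by a disulfide to a heavy chain, CD98hc (encoded by SLC3A2) or rBAT (encoded by SLC3A1). In leukaemia cells the carriers for glutamine, leucine and cystine are known for feeding growth signalling and glutathione synthesis, and some of their genes are known targets of the stress factor ATF4, of NRF2 and of MYC.

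Expression is given as the deposited value per gene, which behaves like RPKM, a read count scaled by gene length and sequencing depth, so levels can be set side by side between genes only as far as that unit holds. A total of 26 of the 55 members reached a value of 1 in 3 or more libraries and were tested, and 29 did not. 22 of the 26 were at 1 or more in all 6 libraries. SLC7A9 passed through the amiodarone libraries alone and SLC6A8 through the control libraries alone, so these members had to differ in order to be tested. Libraries had 11129 to 11323 genes at 1 or more, and the spacing of low values gave a depth of roughly 16600000 to 18600000 reads, if the values are RPKM. Over log2 values of the tested genes, correlations were 0.9975 to 0.9982 within groups and 0.959 to 0.96 between them. Each of the 7 promyelocyte markers looked at was at 1 or more in every library, with a summed value of 7110 to 7210 in controls and 3130 to 3180 after amiodarone. MPO, ELANE, AZU1, PRTN3, CTSG and MS4A3 were lower in every amiodarone library than in any control, and the groups overlapped in CD33. Of markers of other cells, the monocyte genes CD14, CSF1R and VCAN summed to 1.19 to 1.69 in controls and 1.18 to 1.62 after amiodarone. CD14 was higher (0.25 to 0.43 in controls, 0.67 to 0.98 after amiodarone) and CSF1R lower (0.93 to 1.26 and 0.5 to 0.61), both without overlap, and VCAN was at or near 0. The B cell gene CD79A lay between 8.99 and 11.49 in all 6 libraries. Summed T cell markers were 1.92 to 2.78 in controls and 2.43 to 3.0 after amiodarone, and the erythroid, epithelial and fibroblast sums were each at or under 0.73. The part of these marker levels in the results below was not tested. In bulk RNA, fewer cells of a type and less RNA per cell cannot be told apart.

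More of the tested members fell than rose after amiodarone, and the larger changes were mostly rises. With limma on log2(value + 1) and an adjusted p under 0.05, of the 26 tested members 9 rose and 14 fell, leaving 3 that were not called. These counts include SLC7A9 (higher) and SLC6A8 (lower), which had to differ in order to be tested. Of the 24 other members 8 rose and 13 fell. Among all 11445 tested genes 78.3% were called, 33.5% higher and 44.8% lower, so the members' 23 calls stand against a background in which most genes were called. The median log2 fold change was -0.23 over the 26 members and -0.06 over all tested genes. 5 members changed by at least 2-fold on that scale (SLC7A11, SLC43A2, SLC3A2 and SLC7A9 upward, SLC6A8 downward), where 5.15% of all tested genes did. Without SLC7A9 and SLC6A8, whose filter fixed a difference, 3 of the 24 other members did. The shares over all tested genes still include genes that passed through 1 group alone, so they are not a like background for the 24. The groups did not overlap in 23 of the 26 members, SLC7A9 and SLC6A8 among them, and in 79.3% of all tested genes.

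**Figure D1:**
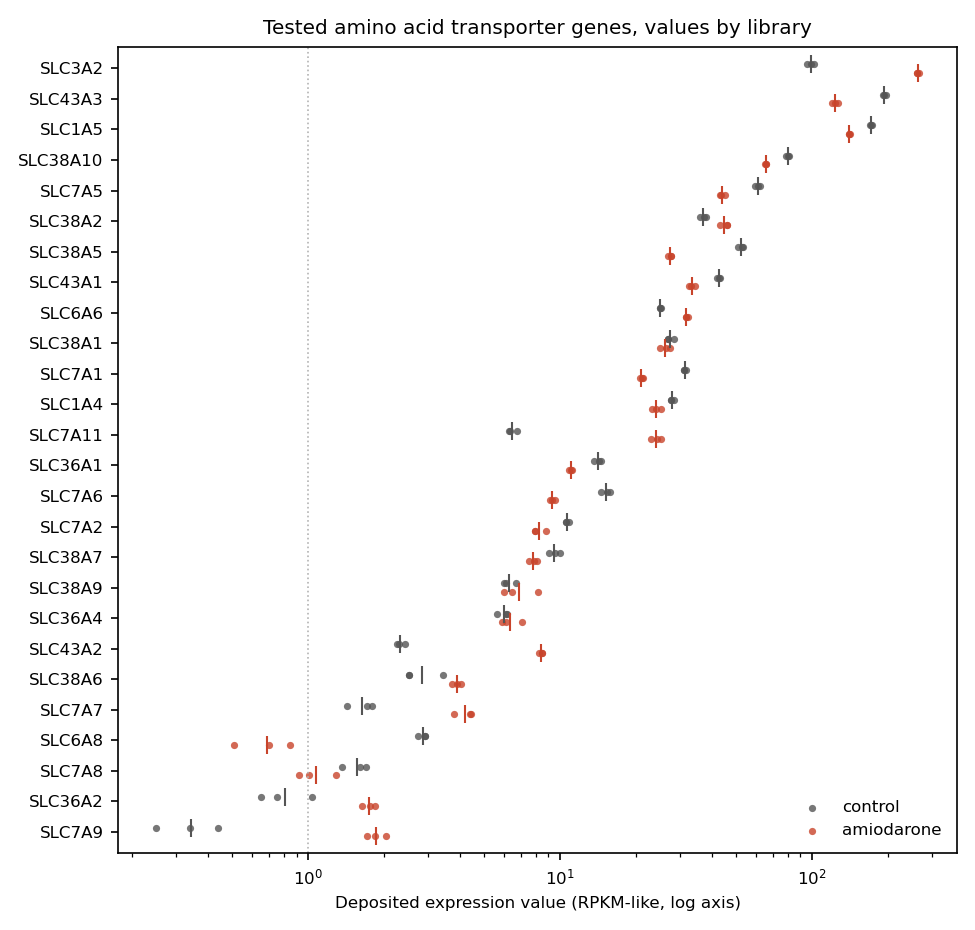
Values of the 26 tested amino acid transporter genes in each of the 6 libraries (deposited RPKM-like values on a log axis, one row per gene ordered by mean; points are libraries, vertical ticks are group means, the dotted line is a value of 1). The replicate points of a group mostly lie close together, less so in low genes such as SLC7A9. Wide gaps between groups are shown by SLC7A9, SLC6A8, SLC7A11, SLC43A2, SLC3A2 and SLC7A7, of which SLC7A9 and SLC6A8 had to differ in order to be tested.

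The plot of values by library spans from SLC7A9, at 0.343 ± 0.095 in controls (SD, n = 3 here and below), to SLC3A2, at 263 ± 2.17 after amiodarone. In controls the members with the highest values were SLC43A3 (193.9 ± 3.19), SLC1A5 (171.8 ± 1.77), SLC3A2 (99.0 ± 3.04), SLC38A10 (80.1 ± 1.29) and SLC7A5 (60.8 ± 1.29). Their ranks among all 17911 genes were 308, 348, 705, 903 and 1222. After amiodarone SLC3A2 came first among the members, at rank 214, ahead of SLC1A5 at 408 and SLC43A3 at 481. SLC3A2 held 10.6% ± 0.304 of the summed value of the 55 members in controls and 27.8% ± 0.134 after amiodarone. The 55 members together made up 0.174% of the summed value of all genes in each control library and 0.165% to 0.166% in the amiodarone libraries. Their own summed value was 933 ± 2.38 in controls and 946 ± 3.25 after amiodarone, with no overlap. The sum over all genes was 534485.6 to 539030.0 in controls and 568653.5 to 574483.1 after amiodarone. A single gene, MTRNR2L2, took 0.779% to 0.819% of that sum in controls and 4.26% to 4.36% after amiodarone. Shares of the sum over all genes therefore depend in part on MTRNR2L2.

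SLC3A2 encodes CD98hc, the heavy chain that several SLC7 light chains need for surface delivery. The gene lies on chromosome 11 at 62856102 to 62888875 on the plus strand (GENCODE 29, GRCh38). Control libraries 1 to 3 had values of 99.3, 101.9 and 95.9, and amiodarone libraries 1 to 3 had 265.7, 261.7 and 262.2. All amiodarone values were far above all control values, a 2.66-fold rise (log2 fold change 1.40, SE 0.027, limma adjusted p = 1.18e-11). The other heavy chain gene, SLC3A1, whose rBAT protein carries cystine and dibasic amino acids in kidney, was at or under 0.08 in every library.

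SLC7A11 encodes xCT, the light chain that brings cystine into the cell in exchange for glutamate and so feeds glutathione synthesis. The gene is on the minus strand of chromosome 4, from 138164097 to 138242349. Its values were 6.72, 6.25 and 6.31 in the controls and 23.0, 25.1 and 24.3 after amiodarone. The groups were wide apart, with a 3.75-fold rise (log2 fold change 1.76, SE 0.046, limma adjusted p = 1.13e-10). On log2(value + 1), 44 of all 11445 tested genes had a larger log2 fold change, and none of the other 25 tested members did. With a pseudocount of 0.1, SLC7A9 had the larger one (2.17 against 1.89).

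SLC7A7, the y+LAT1 light chain that exports dibasic amino acids such as arginine in exchange for neutral ones, also rose. Its values were 1.43, 1.71 and 1.79 in controls and 4.43, 4.40 and 3.81 after amiodarone, a 2.56-fold rise (log2 fold change 0.98, SE 0.077, limma adjusted p = 4.96e-07). SLC7A9, the light chain that pairs with rBAT, had 0.25, 0.44 and 0.34 in controls and 1.84, 1.71 and 2.04 after amiodarone, a 5.43-fold rise in the ratio of means (log2 fold change 1.09, SE 0.083, limma adjusted p = 3.91e-07). The log2 fold change of SLC7A9 was 2.17 with a pseudocount of 0.1. SLC7A9 values were low throughout, as were those of its heavy chain partner gene SLC3A1.

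The light chain genes SLC7A5, SLC7A6 and SLC7A8 fell. SLC7A5 encodes LAT1, the main exchanger for leucine and other large neutral amino acids, from the minus strand of chromosome 16 (87830023 to 87869488). Its values were 62.0, 61.1 and 59.5 in controls and 45.3, 43.2 and 43.7 after amiodarone. Every amiodarone library was below every control, by 1.38-fold on average (log2 fold change -0.46, SE 0.031, limma adjusted p = 1.52e-07). SLC7A6, the y+LAT2 light chain, fell from 15.3 ± 0.67 to 9.32 ± 0.196 (limma adjusted p = 1.74e-07), with 44.4% of its exonic bases opposite SLC7A6OS, a gene that was not called (8.39 ± 0.372 to 8.61 ± 1.52). Whether counting used strand is not given in the sources used here, so reads of that overlap could fall to either gene. SLC7A8, the LAT2 light chain, fell from 1.56 ± 0.176 to 1.07 ± 0.193 (log2 fold change -0.30, limma adjusted p = 0.00828, and -0.51 with a pseudocount of 0.1). SLC7A10, a light chain for small neutral amino acids, was at or under 0.08 in every library.

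**Figure D2:**
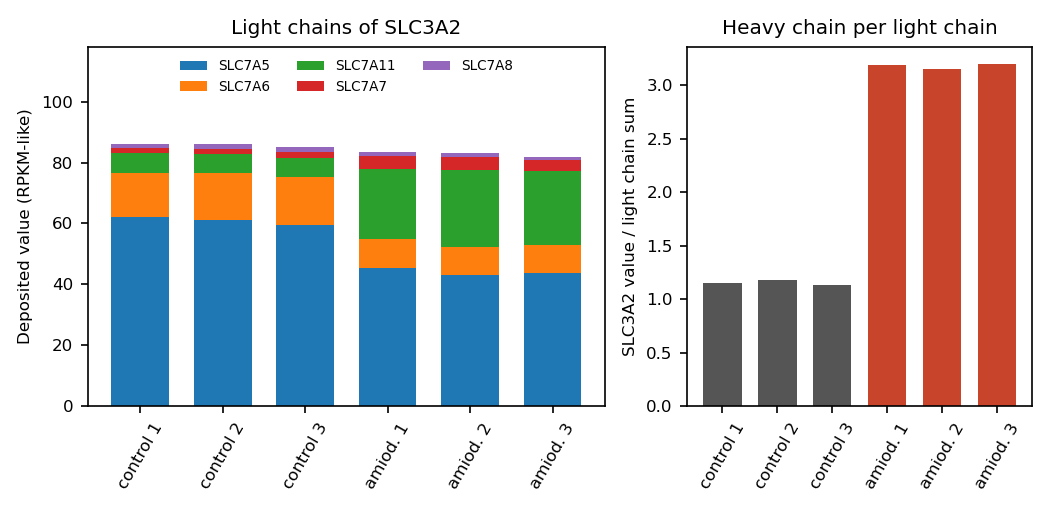
Left, stacked deposited values (RPKM-like) of the SLC7 light chains that pair with SLC3A2, per library; right, the SLC3A2 value divided by the sum of these light chains, per library (bars start at 0; SLC7A10, at or under 0.08, is left out of the stack). The height of the stack differs little between groups while the SLC7A11 segment is larger, and the ratio is 1.13 to 1.18 in controls and 3.15 to 3.2 after amiodarone.

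The heavy chain and its light chains were set against each other within each library. The 6 light chain genes known to pair with SLC3A2 (SLC7A5, SLC7A6, SLC7A7, SLC7A8, SLC7A10 and SLC7A11) summed to 85.8 ± 0.563 in controls and 82.8 ± 0.784 after amiodarone, or 0.016% and 0.0145% of the summed value of all genes. These 2 percentages also depend in part on MTRNR2L2, which is in the sum over all genes. The ratios and shares that follow are within a library and do not depend on how libraries are scaled. The SLC3A2 value was 1.15 ± 0.0288 times that sum in controls and 3.18 ± 0.0288 times after amiodarone, with no overlap of libraries. SLC7A5 made up 70.9% ± 1.09 of the light chain sum in controls and 53.2% ± 1.21 after amiodarone. The share of SLC7A11 was 7.49% ± 0.283 in controls and 29.1% ± 1.32 after amiodarone. SLC7A6 went from 17.8% ± 0.871 to 11.3% ± 0.223 of the sum, and SLC7A7 from 1.92% ± 0.229 to 5.08% ± 0.376. The value of SLC7A11 relative to that of SLC7A5 was 0.106 ± 0.00306 in controls and 0.548 ± 0.0365 after amiodarone. These are transcript ratios per length of gene, and protein at the surface was not measured here.

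Promoter windows from 250 bases before to 50 bases after the gene start were available from RefSeq (GRCh38.p14) for 41 of the 55 members, 22 of them tested. They were searched on both strands for TGATGNAA, the core of the C/EBP-ATF composite element that ATF4 dimers are known to bind, and for TGACNNNGC, the antioxidant response element known for NRF2. The first was found in 4 of 41 members' windows and in 2.23% of the 14022 windows of genes in the expression table. The second was in 5 of 41 and in 14.5% of the 14022. Among tested members, TGATGNAA was in the window of SLC3A2, which rose, of SLC7A1, which fell, and of SLC38A1, which was not called. TGACNNNGC was in those of SLC3A2 and SLC7A7, which rose, and of SLC7A1, SLC7A5 and SLC7A6, which fell. Neither element was in the windows of SLC43A2, SLC7A9, SLC36A2, SLC38A2 and SLC38A6, the other called-higher members with a window. SLC7A11 and SLC6A6, which were also called higher, had no window and were not searched. A window is shown for each of 3 genes, the heavy chain and a light chain gene in each direction, read 5′ to 3′ on the strand of its gene with motif matches in capitals.
SLC3A2, chr11:62881449-62881748, plus strand: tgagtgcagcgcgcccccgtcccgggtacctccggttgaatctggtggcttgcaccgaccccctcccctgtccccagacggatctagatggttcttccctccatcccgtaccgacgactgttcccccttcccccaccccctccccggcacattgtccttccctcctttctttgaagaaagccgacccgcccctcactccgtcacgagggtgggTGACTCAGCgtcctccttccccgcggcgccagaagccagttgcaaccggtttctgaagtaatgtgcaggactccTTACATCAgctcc
SLC7A7, chr14:22819742-22820041, minus strand: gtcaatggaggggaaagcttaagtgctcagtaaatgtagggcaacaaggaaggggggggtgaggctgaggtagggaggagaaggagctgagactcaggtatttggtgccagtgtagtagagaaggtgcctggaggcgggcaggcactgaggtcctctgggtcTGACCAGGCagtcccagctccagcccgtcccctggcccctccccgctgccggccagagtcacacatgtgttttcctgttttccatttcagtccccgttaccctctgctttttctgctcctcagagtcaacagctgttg
SLC7A5, chr16:87869458-87869757, minus strand: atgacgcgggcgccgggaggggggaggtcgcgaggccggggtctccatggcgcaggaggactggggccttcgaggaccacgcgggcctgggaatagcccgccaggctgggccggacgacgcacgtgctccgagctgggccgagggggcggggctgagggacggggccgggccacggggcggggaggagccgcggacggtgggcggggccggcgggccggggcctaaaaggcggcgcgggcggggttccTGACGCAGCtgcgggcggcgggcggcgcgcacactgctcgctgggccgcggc

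In the SLC3A2 window, TGACTCAGC begins 37 bases before the start on the gene's strand, and TTACATCA, which reads as the composite element on the other strand, begins 37 bases after it. The RefSeq start used lies 25597 bases inside the annotated SLC3A2 gene and 10029 bases inside that of SLC7A7 (GENCODE 29), so these windows are not at the outermost start. The starts used for SLC43A2, without a match, and SLC38A1, with 1, also lie inside, by 23852 and 3501 bases. The outermost starts of these genes were not searched. Of 41 windows, 36 end in bases found in a transcript of their gene. In the SLC7A5 window TGACGCAGC begins 2 bases before the start, and in the SLC7A7 window TGACCAGGC begins 88 bases before it. A match is a string of letters and was not tested as a binding site.

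Of the 5 genes of the cationic SLC7 group, whose carriers work without a heavy chain, SLC7A1 and SLC7A2 were tested and both fell. SLC7A1, a main carrier of arginine and lysine, had values of 31.7, 30.9 and 31.2 in controls and 21.1, 21.3 and 20.7 after amiodarone, with no overlap (1.49-fold lower, log2 fold change -0.55, SE 0.032, limma adjusted p = 4.73e-08). SLC7A2 fell from 10.6 ± 0.154 to 8.23 ± 0.483 (limma adjusted p = 8.08e-05). SLC7A14, a relative of the cationic carriers found in lysosomes, stayed under 1 in every library (0.36 to 0.38 in controls, 0.68 to 0.74 after amiodarone), and SLC7A3 and SLC7A4 were at or under 0.02.

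Of the SLC1 family, both neutral amino acid exchangers fell by a small amount. SLC1A5 encodes ASCT2, known as a major glutamine carrier of proliferating cells, from the minus strand of chromosome 19 (46774883 to 46788594). It had values of 170.6, 173.8 and 170.9 in controls and 141.7, 140.1 and 139.9 after amiodarone. The groups were apart, with a log2 fold change of -0.29 (SE 0.022, limma adjusted p = 4.97e-07), and 23.4% of its exonic bases lie opposite an annotated antisense gene. SLC1A4, the alanine, serine and cysteine exchanger ASCT1, fell from 27.9 ± 0.319 to 24.1 ± 1.04 (log2 fold change -0.20, limma adjusted p = 4.83e-04). None of the 5 glutamate carriers of this family was tested, as SLC1A1, SLC1A2, SLC1A3, SLC1A6 and SLC1A7 stayed under 1 in every library.

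**Figure D3:**
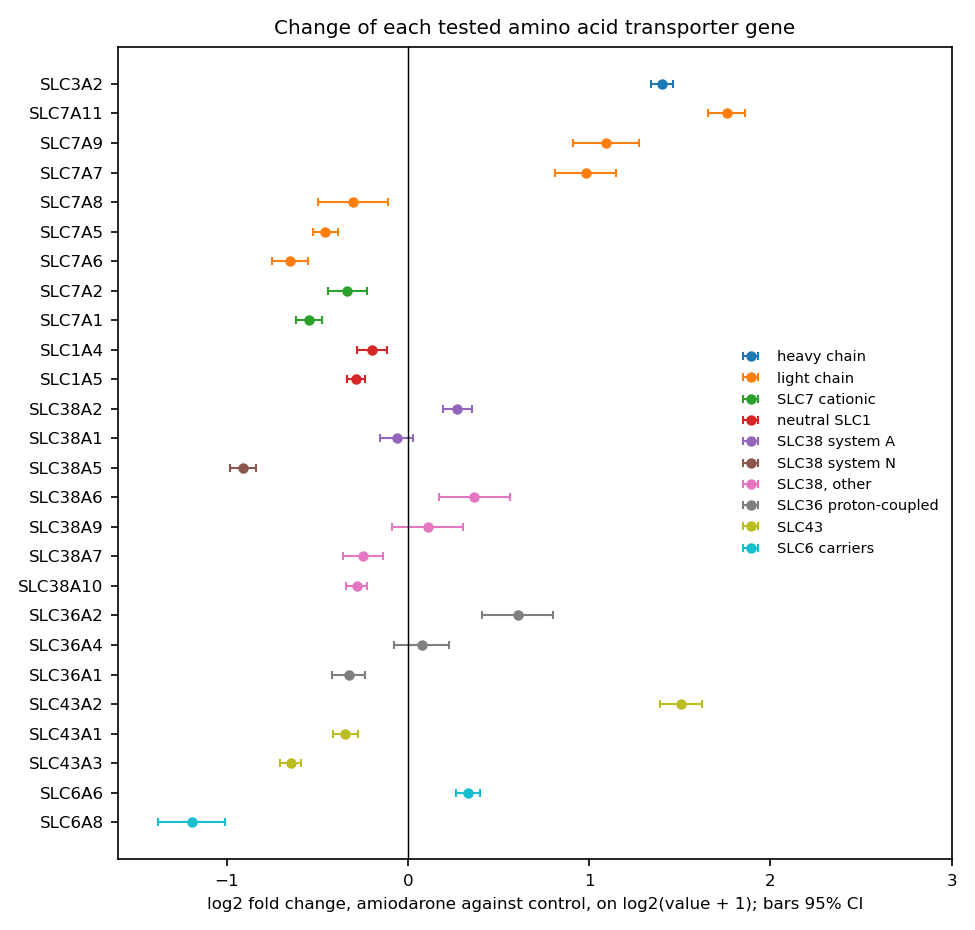
Log2 fold change of each of the 26 tested transporter genes after amiodarone on log2(value + 1), grouped and coloured by role (points are limma estimates, bars 95% confidence intervals, n = 3 libraries per group). Within the light chains, SLC38, SLC36, SLC43 and SLC6 groups some genes lie right of 0 and others left, and the intervals of SLC38A1, SLC36A4 and SLC38A9 include 0.

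In the SLC38 family of glutamine and small neutral amino acid carriers, members differed in direction, as the plot of log2 fold changes by role shows. SLC38A2, a system A carrier that is known to be induced when amino acids run short, rose from 37.0 ± 1.16 to 44.9 ± 1.62 (log2 fold change 0.27, SE 0.036, limma adjusted p = 3.92e-05). SLC38A1, a system A carrier with a like range of substrates, was not called, at 27.4 ± 0.916 and 26.2 ± 1.2 with overlapping groups. The interval of its log2 fold change ran from -0.15 to 0.03, and it was called lower with equal-sum scaling (-0.15, limma adjusted p = 0.0074). Within each library SLC38A2 was 1.33 to 1.39 times SLC38A1 in controls and 1.68 to 1.74 times after amiodarone. SLC38A4, the third system A gene, was at or under 0.03.

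The system N carrier gene SLC38A5, whose protein exchanges glutamine, asparagine and serine against protons, had the largest fall of the 7 tested SLC38 genes. The gene is on the minus strand of chromosome X (48458537 to 48470256). Its values were 50.9, 52.6 and 53.4 in controls and 27.7, 27.6 and 26.8 after amiodarone, all amiodarone values being below all controls (1.91-fold lower, log2 fold change -0.91, SE 0.032, limma adjusted p = 9.62e-10). SLC38A3, the other system N gene, was at or under 0.08.

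Among the other SLC38 genes, SLC38A10 fell from 80.1 ± 1.29 to 65.5 ± 0.479 (limma adjusted p = 1.73e-06). SLC38A7, a lysosomal glutamine and asparagine exporter, fell from 9.51 ± 0.46 to 7.83 ± 0.277 (log2 fold change -0.25, limma adjusted p = 8.53e-04). SLC38A6, a gene of little known transport activity, rose from 2.82 ± 0.528 to 3.89 ± 0.176 (limma adjusted p = 0.00305). SLC38A9, the lysosomal arginine sensor of the mTORC1 pathway, had 6.0, 6.68 and 6.08 in controls and 5.99, 8.15 and 6.44 after amiodarone. It was not called (log2 fold change 0.11, SE 0.089), and the estimate was -0.01 without amiodarone replicate 2, the library with 8.15. SLC38A8 and SLC38A11 were at or under 0.09.

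The SLC36 carriers, some of which are proton-coupled and export small amino acids from lysosomes or take them up at the surface, were also mixed. SLC36A1, found on lysosomes and known as an input to mTORC1, fell from 14.1 ± 0.468 to 11.04 ± 0.196 (log2 fold change -0.33, SE 0.042, limma adjusted p = 2.61e-05). SLC36A4 was not called, at 5.97 ± 0.293 and 6.35 ± 0.652. SLC36A2, known as a kidney carrier of glycine and proline, rose at low levels from 0.75, 1.04 and 0.65 to 1.64, 1.84 and 1.76 (limma adjusted p = 7.92e-05). The log2 fold change of SLC36A2 was 0.60, and 1.04 with a pseudocount of 0.1. SLC36A3 stayed at or under 0.16.

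The SLC43 family split between its leucine carriers. SLC43A2 encodes LAT4, a facilitated carrier of branched-chain amino acids, phenylalanine and methionine, from the minus strand of chromosome 17 (1569267 to 1628886). It had 2.25, 2.29 and 2.42 in controls and 8.48, 8.27 and 8.52 after amiodarone. The groups were wide apart, with a 3.63-fold rise (log2 fold change 1.505, SE 0.053, limma adjusted p = 9.29e-10). SLC43A1, which encodes the related carrier LAT3, had the higher level in both groups and fell from 42.6 ± 0.477 to 33.3 ± 0.856 (log2 fold change -0.35, limma adjusted p = 1.60e-06). The value of SLC43A2 was thus 0.0545 ± 0.00271 times that of SLC43A1 in controls and 0.253 ± 0.00345 times after amiodarone.

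SLC43A3, named with this family but known as a purine nucleobase carrier, had the highest control level of the 55 members. Its values were 191, 193 and 197 in controls and 126, 121 and 123 after amiodarone, again with no overlap (1.57-fold lower, log2 fold change -0.65, SE 0.026, limma adjusted p = 2.68e-09). Another annotated coding gene on the same strand shares 29.9% of its exonic bases, so the split of reads there is uncertain.

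Of 16 SLC6 members only 2 were tested, and neither carries a protein-building amino acid as its main substrate. SLC6A6, the taurine carrier TauT, rose from 25.04 ± 0.0709 to 31.7 ± 0.338 (1.27-fold, log2 fold change 0.33, SE 0.03, limma adjusted p = 1.94e-06). SLC6A8, the creatine carrier, lies on chromosome X at 153688099 to 153696593 on the plus strand and had 2.72, 2.91 and 2.91 in controls and 0.51, 0.85 and 0.70 after amiodarone. Its mean was 4.15-fold lower (log2 fold change -1.19, SE 0.083, limma adjusted p = 2.04e-07), and the 3 amiodarone values were all under 1. With a pseudocount of 0.1 the log2 fold change of SLC6A8 was -1.93. SLC6A20, a proline carrier, came closest to the filter without passing it, at 0.7 to 1. The serotonin carrier gene SLC6A4 (0.28 to 0.87) and SLC6A16 (0.39 to 0.63) followed, and the other 11 stayed at or under 0.34.

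**Figure D4:**
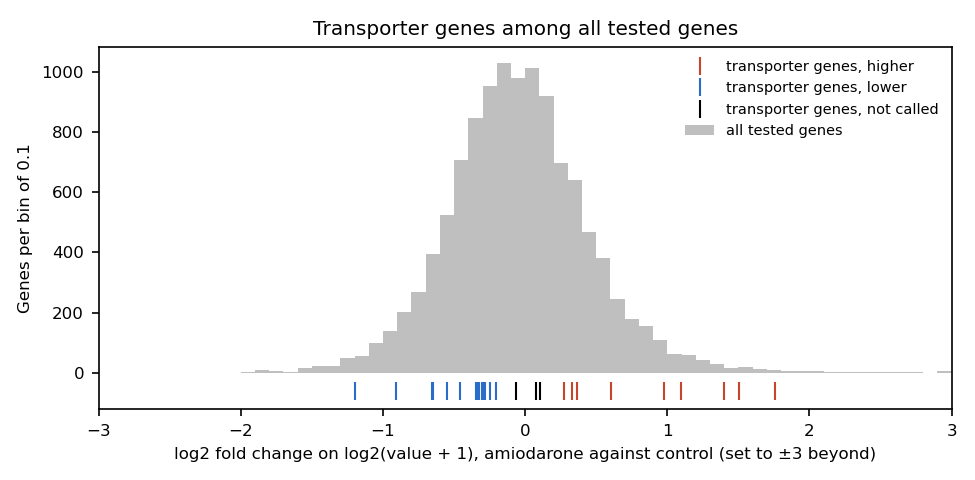
Log2 fold changes of all 11445 tested genes (grey bars, genes per bin of 0.1) with the 26 tested transporter genes as ticks under them, coloured by call. Most ticks lie within the bulk of all genes, and SLC7A11 (1.76), SLC43A2 (1.505) and SLC3A2 (1.40) lie in the upper tail.

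Few of all tested genes had larger log2 fold changes than SLC7A11 (0.384%), SLC43A2 (0.725%), SLC3A2 (0.865%), SLC7A9 (2.04%) and SLC7A7 (2.69%). At the other end, 1.27% of tested genes lay below SLC6A8 and 3.67% below SLC38A5. SLC7A9 passed the filter through the amiodarone libraries alone and SLC6A8 through the control libraries alone. These members had to differ in order to be tested, so their places are partly set by the filter. SLC1A5, the glutamine exchanger, had 30.6% of tested genes below it and SLC7A5 had 18.6%, well inside the range of all genes.

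Other carriers of amino acids and peptides, from a list outside the rule, had 4 of 8 tested genes higher and 4 lower, where 33.5% of all tested genes were higher and 44.8% lower. SLC15A1, a proton-coupled peptide carrier and among the 4 counted higher, had 0.69 ± 0.0781 in controls and 2.22 ± 0.217 after amiodarone (limma adjusted p = 8.27e-07). It passed the filter through the amiodarone libraries alone, so it had to differ in order to be tested. SLC15A3, its lysosomal relative, rose from 9.96 ± 0.333 to 17.1 ± 0.791 (limma adjusted p = 9.61e-08). SLC17A5, the sialic acid exporter of lysosomes, rose from 4.23 ± 0.287 to 6.57 ± 0.338. The lysosomal carriers SLC15A4 and MFSD12, a cysteine carrier, fell from 11.2 ± 0.271 to 8.97 ± 0.479 and from 59.5 ± 2.13 to 48.9 ± 1.24.

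Of proteins that stabilise, traffic or degrade these carriers, 4 of 7 tested genes rose, 2 fell and 1 was not called (78.3% of all tested genes were called, 33.5% higher). SGK1, a kinase known to raise surface levels of several carriers, rose from 8.46 ± 0.393 to 36.9 ± 0.842 (log2 fold change 2.00, limma adjusted p = 2.00e-11). CD44, a surface glycoprotein known to stabilise xCT, rose from 96.7 ± 1.6 to 174 ± 2.36 (limma adjusted p = 2.32e-10). ARL6IP5, which binds a glutamate carrier, rose 1.31-fold, and the ubiquitin ligase gene NEDD4 rose 1.71-fold. RNF5, a ubiquitin ligase known to target SLC1A5 and SLC38A2, fell from 89.2 ± 2.68 to 66.2 ± 2.11, and OTUB1, a deubiquitinase known to stabilise xCT and named after its values were seen, fell from 40.01 ± 2.16 to 32.5 ± 1.32.

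Of transcription regulators known for amino acid transporter genes, 7 of 9 tested rose and 2 fell, beside 33.5% and 44.8% of all tested genes. DDIT3, which encodes the stress factor CHOP, rose 6.24-fold and NFE2L2, which encodes NRF2, 1.84-fold. ATF4, whose protein is controlled mostly at translation, had 497 ± 4.16 in controls and 568 ± 5.46 after amiodarone (log2 fold change 0.19, limma adjusted p = 5.14e-06). CEBPB rose 1.45-fold and CEBPG 1.35-fold. BACH1 rose 1.45-fold and ATF3 1.92-fold. MYC fell from 268 ± 4.71 to 158 ± 4.61 (log2 fold change -0.76, limma adjusted p = 1.04e-09), and KEAP1 from 27.9 ± 0.883 to 21.6 ± 0.632. All 9 tested genes of this list are given, of which ATF4, BACH1, ATF3 and KEAP1 were named after their values were seen.

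Genes that report amino acid supply to mTORC1 moved by small amounts, with 6 of 23 higher, 10 lower and 7 not called, and a median log2 fold change of -0.08. That is near the values of all tested genes, of which 33.5% were higher and 44.8% lower with a median of -0.06. The leucine sensor gene SESN2 rose from 9.31 ± 0.427 to 13.3 ± 0.65, and BMT2, the S-adenosylmethionine sensor SAMTOR, rose 1.46-fold (limma adjusted p = 6.63e-06). WDR24 and SEH1L of the GATOR2 complex fell from 7.85 ± 0.116 to 5.50 ± 0.333 and from 43.9 ± 1.09 to 35.7 ± 1.15. CASTOR1, an arginine sensor, rose 1.65-fold at low levels.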

How the data were processed

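Per the labels' protocols, a stranded mRNA kit was used for the 6 HL-60 libraries (3 control, 3 amiodarone). The build GRCh38.p12 and the tools STAR 2.5.3a, featureCounts and fastp 0.23.4 are listed, with no roles or order, per the submitters' processing notes. The unit of the deposited table is not stated in its header. The deposited values behave like RPKM computed by the authors: they are not whole numbers, and low values of short genes tend to lie near multiples of a length-dependent step (39.2% to 45.6% within 0.15 of a whole step, where 30% would by chance). The step was chosen to fit, whole reads could not be recovered, and intervals of counting error were not computed.

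The design named a count test for counts and limma for a normalized unit, and limma was used. Values were not rescaled. Genes that reached 1 in 3 or more libraries (11445 of 17911) were tested with limma 3.58.1 in R 4.3.3 (lmFit, eBayes with trend) on log2(value + 1), with Benjamini-Hochberg adjustment over all of them at 0.05. This scale understates changes of low genes. Folds are ratios of group means of deposited values. A fall is given as control over amiodarone. Alternatives were a pseudocount of 0.1, no filter, a minimum of 5, median-of-ratios and equal-sum scaling, no trend, a replicate block and leaving out each library. The procedure was tested on simulated data. Coordinates and exon overlaps come from GENCODE 29 (bedtools 2.31.1), and overlaps above 15% are given for tested members. Every tested member is named, and of the members under the filter not all are reported here by name. Of each list outside the rule, the genes with the 5 smallest adjusted p-values are named, and others are said to be chosen after their values were seen. The members and lists were chosen with earlier results of these data known. SLC7A6OS, whose symbol does not end in a number, was not a member.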

Additional observations from a re-analysis of the deposited data

How the results depend on the processing

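Across 13 alternatives, 323 of 326 values of tested members kept their direction and their side of the threshold, and so did all values of 23 of the 26 members wherever they were tested. SLC38A1 was called lower with equal-sum scaling (-0.15, adjusted p = 0.0074, limma), SLC36A4 turned to -0.004 with that scaling, and SLC38A9 turned to -0.007 without amiodarone replicate 2 (0.187 without amiodarone replicate 1). The count of members called higher was 16 without a filter and 5 at a minimum value of 5, where 20 members are left, against 9. Of all genes 26.7% and 32.6% were called higher in these fits. The median log2 fold change of -0.23 was 0.01 without a filter, where 55 members enter, -0.27 at a minimum of 5, -0.19 with median-of-ratios scaling and -0.31 with equal-sum scaling. The all-gene medians in these 4 fits were 0.0018, -0.09, -0.03 and -0.14. A pseudocount of 0.1 moved 4 low members by over 1.5 times, to 2.17 for SLC7A9, -1.93 for SLC6A8, 1.04 for SLC36A2 and -0.51 for SLC7A8, each still called. Leaving out 1 library gave medians from -0.27 to -0.19, 8 to 9 members higher and 13 to 14 lower. SLC6A8 had no value without any 1 control library, nor SLC7A9 without any 1 amiodarone library, because each then missed the filter. Same-numbered libraries did not deviate together (correlations -0.155, -0.018 and -0.023), and with a replicate block 9 members were higher and 14 lower, with a median of -0.23. The gene MTRNR2L2 took 0.779% to 0.819% of the summed values in controls and 4.26% to 4.36% after amiodarone, which bears on equal-sum scaling. Depth limits what can be said of the 29 members under the filter.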

Other observations

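The 29 members under the filter were looked at in the fit without a filter, in which 57.3% of all 17911 genes were called. That share includes the 11445 genes that passed the filter, and was not computed for genes under the filter alone. In that fit 7 of the 29 were higher, 1 was lower and 21 were not called. The higher ones were all low. SLC7A14 had 0.37, 0.36 and 0.38 in controls and 0.68, 0.74 and 0.73 after amiodarone (log2 fold change 0.33, limma adjusted p = 1.73e-04). SLC6A11, a GABA carrier gene, had 0.10, 0.10 and 0.08 in controls and 0.34, 0.25 and 0.29 after amiodarone (limma adjusted p = 5.05e-04). The serotonin carrier gene SLC6A4 had 0.33, 0.28 and 0.38 in controls and 0.87, 0.64 and 0.54 after amiodarone (limma adjusted p = 0.00636). The glial glutamate carrier genes SLC1A3 (log2 fold change 0.39) and SLC1A2 (0.14), the orphan carrier gene SLC6A16 (0.15) and SLC6A15 (0.09) made up the rest. The only called fall among them was that of SLC1A1, the glutamate carrier EAAC1, from 0.40, 0.33 and 0.39 to 0.08, 0.16 and 0.12 (log2 fold change -0.29, limma adjusted p = 3.96e-04).

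17 of the 29 were under 0.1 in every library. They include the heavy chain gene SLC3A1, the brain and liver carriers SLC38A3, SLC38A4 and SLC38A8, the cationic carriers SLC7A3 and SLC7A4, and the monoamine carriers SLC6A2 and SLC6A3. SLC38A11, SLC1A6, SLC1A7, SLC7A10, SLC6A9, SLC6A12, SLC6A17 and SLC6A18 were also among them. SLC6A13, SLC6A14 and SLC36A3 had highest values of 0.10, 0.16 and 0.16, and none of them was called.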
